A study of Rattus norvegicus with 12 samples.

Results

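The cell cycle and DNA replication genes described here are 58 genes listed by symbol, with earlier results of these data known, for work in DNA replication, S-phase metabolism and mitosis, with the D-type cyclins left out. Of them 32 had at least 1 probe set that named them alone, 48 probe sets of the 8740 on the array and 32 of its 4736 genes. A probe set is a group of short oligonucleotides read together, for 1 gene or for several, and a gene can have several probe sets. After dim probe sets were left out, 47 member probe sets of 31 genes were tested among 6118 probe sets of 3647 genes. The exception was the probe set of Cdc25a, a phosphatase of the G1 to S step, which lay at the floor on all 12 arrays. The other 26 members had no such probe set and were skipped: Mcm2, Mcm3, Mcm4, Rfc2, Rfc5, Lig1, Rrm1, Rrm2, Tk1, Ccna2, Ccnb2, Ccne2, Cdc25c, Cks1b, Cks2, Aurka, Bub1, Nek2, Kif23, Cenpf, Birc5, Ran, Mki67, E2f1, Myb and Mybl2.

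The cells were CC531, an established rat colon carcinoma line. Total RNA was read on 12 arrays, 1 for each treatment and hour: untreated cells at 2 and 24 h, cells in 4.5 mM butyrate at 2, 6, 12, 16 and 24 h, and cells in 3 mM aspirin at the same 5 times. Butyrate, a short fatty acid made by bacteria in the colon, blocks histone deacetylases, and aspirin blocks the cyclooxygenase enzymes of prostaglandin synthesis. The labels name no separate cultures, so a p-value covers no more than how these arrays scatter, and the number of arrays limits the precision. Against untreated cells that scatter includes change over the hours. Between the drugs it is what remains after the hour, and for slopes after the fitted line, on the treated arrays alone.

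Cells that divide copy their DNA in S phase and part the copies in mitosis. Before S phase the MCM proteins are loaded on DNA as a ring that later unwinds it, and at the fork the sliding clamp PCNA holds the polymerases. Cyclin E with CDK2 and the cyclin D kinase CDK4 drive entry into S phase, and cyclin B with CDK1 drives mitosis, which ends when CDC20 directs the destruction of cyclin B. Many of these genes are read only in the phase that needs them, through E2F factors for S phase and through FOXM1, MYBL2 and NF-Y for mitosis. In bulk RNA a smaller share of cells in a phase and less RNA per cell cannot be told apart.

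All levels are log2 of the deposited intensity after values below 90.91 (log2 6.51), called the floor, were raised to it. The label of a colon epithelial line was checked on keratins and junction genes: Krt8, Krt18, Krt19, Epcam and Cldn3 lay between 12.46 and 14.39 on every array, and 0 of these 5 ever reached the floor. Of 17 markers of other cell types on the array, Vwf (endothelium), Pdgfrb (fibroblasts) and Cd8a (T cells) were at the floor on all 12 arrays. Others were not: the smooth muscle actin gene Acta2 lay between 9.99 and 12.11 and the collagen gene Col1a1 between 8.32 and 9.65, with 0 arrays at the floor, and Ptprc (blood cells) and Pecam1 (endothelium) were each at it on 1 array. The summed intensity of the 6 fibroblast and muscle markers was 4489 to 5532 untreated, 3535 to 4546 with butyrate and 2085 to 4837 with aspirin, and that of the 4 hepatocyte markers 485 to 537, 401 to 1834 and 422 to 591. That of the 4 blood and immune markers was 490 to 1103, 485 to 759 and 410 to 828, and that of the 3 endothelial markers 365 to 442, 304 to 353 and 273 to 359. That of the 5 epithelial markers was 61224 to 72363, 56430 to 66527 and 60409 to 70561. Their part in the results was not tested. The untreated 2 h array was at least 2-fold above the untreated 24 h array on 7 of 47 member probe sets (14.9%). That was near the share of all probe sets, 10.9%. By the brightest probe set it was so for 3 of 31 genes (9.68%). On 0 of 47 the 2 h array was at least 2-fold lower, beside 5.66% of all.

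Over the hours of butyrate the members that changed all fell. The slope over log2 hours, in log2 units for each doubling of time, was negative on 43 of 47 probe sets, beside 40.4% of all, and 24 of 47 (51.1%) fell by limma's test at an adjusted p under 0.05, where 4.2% of all 6118 tested probe sets fell and 8.99% moved either way. No member rose: 0 slopes passed upward, where 4.79% of all probe sets did. Counted by the brightest probe set of each gene, 16 of 31 genes fell, beside 4.33% of all genes. The median slope of the 31 genes was −0.41, beside 0.03 over all genes. On at least 1 probe set 20 of 31 genes fell. That count grows with the number of probe sets per gene and has no share of all genes beside it. At 2 h of butyrate 2 of 47 member probe sets stood at least 2-fold below the untreated mean, beside 4.69% of all probe sets, then 9 at 6 h (5.66% of all), 18 at 12 h (7.49%), 26 at 16 h (9.27%) and 34 at 24 h (9.95%).

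**Figure D1:**
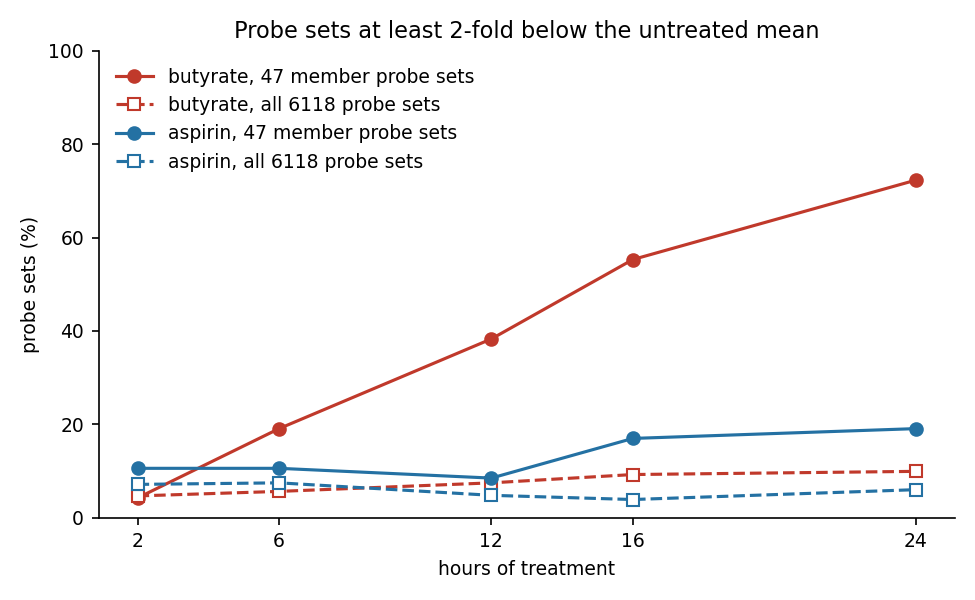
Percent of probe sets (y axis) whose level was at least 2-fold below the mean of both untreated arrays at each hour of treatment (x axis), for the 47 member probe sets (filled circles) and all 6118 tested probe sets (open squares). Under butyrate the member share went from 4.26% at 2 h to 72.3% at 24 h, under aspirin it lay between 8.51% and 19.1%, and the lines for all probe sets ended at 9.95% and 6.03%.

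Within single probe sets the order of the hours was similar. With butyrate the 24 h array was the lowest of its 5 on 32 of 47 member probe sets, beside 16.9% of all probe sets, and 18 of 47 were lower at each later hour than at the one before, beside 4.2% of all. On 31 of 47 the 12, 16 and 24 h arrays all lay below the 2 and 6 h arrays, beside 14.1% of all. The median level of the 31 genes, relative to the untreated mean, was −0.11, −0.37, −0.82, −1.36 and −1.66 at 2, 6, 12, 16 and 24 h of butyrate. Over the same hours of aspirin it was −0.12, 0.05, −0.12, −0.27 and −0.52, and over all probe sets with butyrate it stayed between −0.02 and 0.00.

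**Figure D2:**
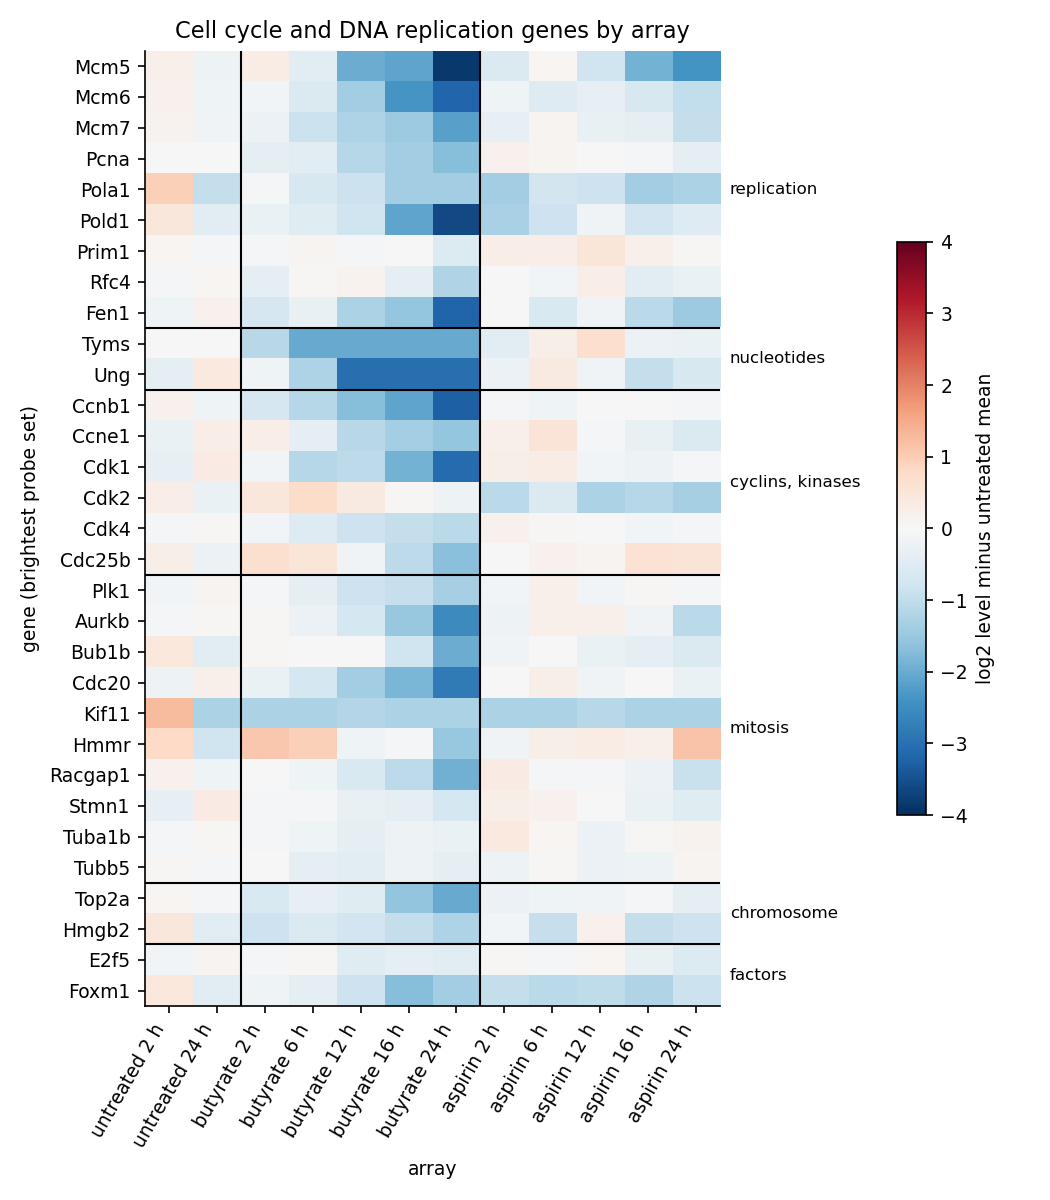
Level of each gene (rows, brightest probe set, grouped by role) on each array (columns) as log2 difference from the mean of both untreated arrays, with blue below and red above it. The blue deepens from the 2 h to the 24 h butyrate array in most rows, where the median over the 31 genes goes from −0.11 to −1.66, and in the aspirin columns it ends at −0.52.

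Among the genes of the replication fork, 5 of 9 fell over the hours of butyrate by their brightest probe set (4.33% of all genes). Their median slope, over all 9, was −0.49. Mcm6, a subunit of the MCM helicase, read 12.36 and 12.03 on the untreated 2 and 24 h arrays, 12.07, 11.62, 10.79, 9.84 and 9.03 at 2, 6, 12, 16 and 24 h of butyrate, and 12.04, 11.69, 11.86, 11.55 and 11.21 at the same hours of aspirin. Values below follow that order of arrays. The last 3 butyrate arrays lay below every other array, and Mcm6 fell by 0.83 ± 0.13 (adjusted p = 0.00961) for each doubling of time. At 24 h it was 7.98-fold lower with butyrate than without, on 1 array each. Its other probe sets fell by 0.83 ± 0.15 (adjusted p = 0.0158) and 0.61 ± 0.10 (adjusted p = 0.0112).

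Mcm5, another helicase subunit, read 11.30 and 10.91 untreated, 11.40, 10.69, 9.11, 8.996 and 7.24 with butyrate and 10.53, 11.18, 10.32, 9.20 and 8.70 with aspirin. It fell by 1.09 ± 0.22 (adjusted p = 0.0246) over the hours of butyrate, the steepest slope of the 31 genes. Its 24 h aspirin array lay below its 12 and 16 h butyrate arrays, so the drugs overlapped. The aspirin slope of Mcm5 was −0.53 ± 0.22, adjusted p = 0.237, and the slopes did not pass the test of their difference (−0.56 ± 0.32, adjusted p = 0.413). Mcm7 read 13.19 and 12.90 untreated, 12.81, 12.20, 11.80, 11.60 and 10.88 with butyrate and 12.71, 13.14, 12.76, 12.67 and 12.10 with aspirin, and fell by 0.49 ± 0.10 (adjusted p = 0.0201). All butyrate arrays of Mcm7 lay below both untreated arrays, though the 2 h one by little.

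Pcna, the sliding clamp, read 14.14 and 14.11 untreated, 13.73, 13.71, 13.00, 12.73 and 12.41 with butyrate and 14.30, 14.24, 14.15, 14.04 and 13.78 with aspirin, so that all 5 butyrate arrays lay below all 7 others. It fell by 0.39 ± 0.07 (adjusted p = 0.0145), and by 0.59 ± 0.10 (adjusted p = 0.013) on its other probe set. Pola1, the catalytic subunit of the polymerase that starts new strands, was dim and read 8.84 and 6.95 untreated, 7.82, 7.27, 7.04, 6.51 and 6.51 with butyrate and 6.51, 7.16, 7.07, 6.51 and 6.63 with aspirin. It fell by 0.38 ± 0.09 (adjusted p = 0.0422), with butyrate at the floor at 16 and 24 h, and its untreated 2 h array stood apart at the top.

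Pold1, the catalytic subunit of polymerase delta, did not pass (slope −0.82 ± 0.22, adjusted p = 0.0595), although it went from 9.85 at 2 h of butyrate to the floor at 24 h. Nor did the flap nuclease gene Fen1 pass (−0.61 ± 0.21, adjusted p = 0.115), which read 10.95 and 11.31 untreated, 10.45, 10.82, 9.88, 9.58 and 7.94 with butyrate and 11.14, 10.53, 10.98, 10.06 and 9.69 with aspirin. The primase gene Prim1, which makes the RNA primers, had slopes of −0.09 (0.521) and 0.01 (1) on its probe sets, with adjusted p in parentheses. The 3 probe sets of Rfc4, a subunit of the loader that puts PCNA on DNA, had slopes of −0.16 (0.561), −0.18 (0.453) and −0.13 (0.703). Prim1 on AJ011608_at kept between 11.14 and 11.80 with butyrate.

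The S-phase metabolism genes on the array were Tyms, for thymidylate synthase, which makes the thymidine nucleotide, and Ung, which cuts uracil out of DNA. Tyms read 8.55 and 8.50 untreated, 7.43 at 2 h of butyrate and the floor at the other 4 hours, and 8.06, 8.77, 9.20, 8.29 and 8.26 with aspirin. All 5 butyrate arrays lay below all 7 others, and Tyms was at least 3.98-fold lower with butyrate than without at 24 h, on 1 array each. Its slope did not pass (−0.25 ± 0.14, adjusted p = 0.315). Ung read 9.12 and 9.92 untreated, 9.34, 8.29, 6.51, 6.51 and 6.51 with butyrate and 9.29, 9.89, 9.38, 8.57 and 8.87 with aspirin. It lay at the floor from 12 h of butyrate on and fell by 0.90 ± 0.16 (adjusted p = 0.0143) over the hours.

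Of the cyclins, kinases and their phosphatases, 5 of 6 genes fell over the hours of butyrate by their brightest probe set (4.33% of all genes). The median slope of the 6, by the same probe sets, was −0.58. Ccnb1, for cyclin B1, read 12.40 and 12.05 untreated, 11.55, 11.07, 10.52, 10.13 and 8.96 with butyrate and 12.18, 12.06, 12.23, 12.22 and 12.18 with aspirin. Each butyrate array was lower than the one before and lower than all 7 arrays without butyrate. Ccnb1 fell by 0.64 ± 0.11 (adjusted p = 0.0121) on this probe set and by 0.71 ± 0.11 (adjusted p = 0.0102) on the other, and at 24 h was 8.56-fold and 9.97-fold lower with butyrate than without.

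Cdk1, the kinase partner of cyclin B, read 12.00 and 12.64 untreated, 12.21, 11.17, 11.28, 10.43 and 9.25 with butyrate and 12.54, 12.60, 12.21, 12.13 and 12.28 with aspirin. It fell by 0.71 ± 0.13 (adjusted p = 0.0162), and its 24 h butyrate array was 10.5-fold below the untreated 24 h array. Cdk4, the partner of the D-type cyclins, read 14.57 and 14.68 untreated, 14.51, 14.11, 13.80, 13.68 and 13.54 with butyrate and 14.81, 14.68, 14.65, 14.52 and 14.55 with aspirin. Its fall was small but even: each butyrate array lay below the one before, and Cdk4 fell by 0.28 ± 0.03 (adjusted p = 0.00145), the lowest adjusted p of the members. Ccne1, for the S-phase cyclin E1, read 11.29 and 11.83 untreated, 11.82, 11.19, 10.45, 10.20 and 10.02 with butyrate and 11.77, 12.09, 11.52, 11.27 and 10.98 with aspirin, and fell by 0.53 ± 0.08 (adjusted p = 0.00971). Its other probe set did not pass (−0.14 ± 0.10, adjusted p = 0.489).

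Cdc25b, a phosphatase that activates CDK1, fell on 1 of its 3 probe sets. That one read 9.69 and 9.22 untreated, 10.09, 9.95, 9.33, 8.43 and 7.80 with butyrate and 9.43, 9.64, 9.55, 10.03 and 9.97 with aspirin, and fell by 0.63 ± 0.13 (adjusted p = 0.0252). The others had slopes of 0.08 (0.791) and 0.06 (0.504). The level of rc_AI012942_at did not track the falling probe set: it read 9.68 and 7.74 untreated and 9.42, 9.84, 9.82, 9.66 and 9.75 with butyrate. That of rc_AI012942_g_at lay at the floor on most arrays and no higher than 6.84, so no order can be read from it. Cdk2, the partner of cyclin E, fell by 0.61 ± 0.10 (adjusted p = 0.0123) on a dim probe set that read 8.53, 7.31, 6.51, 6.51 and 6.51 with butyrate, 7.10 and 6.83 untreated and 7.05, 6.51, 7.19, 6.51 and 6.51 with aspirin. Its brighter probe set did not pass (−0.19 ± 0.11, adjusted p = 0.366).

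Of the mitotic genes 4 of 10 fell by their brightest probe set (4.33% of all genes), with a median slope of −0.40. Cdc20, the activator of the ubiquitin ligase that ends mitosis, read 11.82 and 12.21 untreated, 11.76, 11.32, 10.63, 10.18 and 9.20 with butyrate and 12.01, 12.24, 11.88, 12.00 and 11.76 with aspirin. It was lower at each later hour of butyrate, fell by 0.66 ± 0.10 (adjusted p = 0.00971), and at 24 h was 8.07-fold lower with butyrate than without. Plk1, a kinase of mitotic entry and spindle assembly, read 11.84 and 12.07 untreated, 11.90, 11.59, 11.11, 11.03 and 10.64 with butyrate and 11.84, 12.16, 11.84, 12.00 and 11.92 with aspirin, and fell by 0.34 ± 0.05 (adjusted p = 0.00961). For both genes the 12, 16 and 24 h butyrate arrays lay below all arrays without butyrate.

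Racgap1, which acts at the midzone where the dividing cell is pinched, read 12.69 and 12.34 untreated, 12.49, 12.35, 11.91, 11.46 and 10.60 with butyrate and 12.86, 12.43, 12.48, 12.29 and 11.62 with aspirin, and fell by 0.48 ± 0.11 (adjusted p = 0.0394). Hmmr, which helps to build the spindle, read 8.81 and 7.21 untreated, 9.08, 8.96, 7.82, 7.93 and 6.51 with butyrate and 7.86, 8.23, 8.31, 8.22 and 9.14 with aspirin. It fell by 0.65 ± 0.16 (adjusted p = 0.0424), while its aspirin array of 24 h was its highest of that drug. Bub1b, of the spindle checkpoint, fell by 0.24 ± 0.03 (adjusted p = 0.00799) on a dim probe set that was at or near the floor on most arrays (7.98 and 6.51 untreated, 7.30, 6.87, 6.64, 6.51 and 6.51 with butyrate and 6.72, 6.51, 6.51, 6.51 and 6.51 with aspirin). Its brighter one, at 10.19, 10.15, 10.16, 9.33 and 8.15 with butyrate, did not pass (−0.46 ± 0.16, adjusted p = 0.124).

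The kinase gene Aurkb, which corrects the attachment of chromosomes, did not pass (−0.66 ± 0.18, adjusted p = 0.0595), though it read 11.10, 10.82, 10.35, 9.53 and 8.51 with butyrate beside 10.98 and 11.10 untreated and 10.83, 11.26, 11.26, 10.90 and 9.95 with aspirin. The spindle motor gene Kif11 was above the floor on only 3 arrays, at 9.05 untreated at 2 h and 6.61 and 6.66 at 12 h of butyrate and aspirin, and no slope can be read from it. The tubulin genes did not pass: Tuba1b had a slope of −0.07 (0.494), and Tubb5 slopes of −0.09 (0.385) and −0.24 (0.179). Stmn1, which takes microtubules apart, read 12.81 and 13.49 untreated, 13.07, 13.08, 12.86, 12.77 and 12.44 with butyrate and 13.40, 13.32, 13.14, 12.88 and 12.66 with aspirin, and its slope of −0.16 (0.116) did not pass either.

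Top2a, the topoisomerase that untangles sister chromosomes, fell on 1 of its 3 probe sets, by 0.42 ± 0.10 (adjusted p = 0.0395), a dim one at 10.55 and 6.94 untreated, 7.99, 7.47, 7.39, 6.51 and 6.51 with butyrate and 6.69, 6.51, 7.14, 6.89 and 6.51 with aspirin. Its untreated 2 h array lay above all others. The brightest, at 12.90 and 12.76 untreated and 12.23, 12.50, 12.33, 11.23 and 10.80 with butyrate, had a slope of −0.38 (0.14), and the other one of −0.78 (0.14). Hmgb2, a chromatin protein abundant in dividing cells, fell by 0.49 ± 0.09 (adjusted p = 0.015) on a probe set at 9.53 and 9.02 untreated, 8.83, 8.26, 7.64, 7.41 and 7.08 with butyrate and 9.50, 9.30, 8.63, 8.88 and 8.21 with aspirin, and not on the brighter one (−0.10 ± 0.14, adjusted p = 0.761). Of the transcription factors, Foxm1, an activator of mitotic genes, read 10.98 and 10.11 untreated, 10.38, 10.20, 9.73, 8.84 and 9.14 with butyrate and 9.58, 9.46, 9.52, 9.33 and 9.69 with aspirin, and fell by 0.41 ± 0.10 (adjusted p = 0.0423). E2f5, a repressor of the E2F family, read 9.36 and 9.56 untreated, 9.39, 9.52, 8.96, 9.10 and 8.99 with butyrate and 9.51, 9.37, 9.53, 9.17 and 8.91 with aspirin, and had a slope of −0.14 (0.366).

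**Figure D3:**
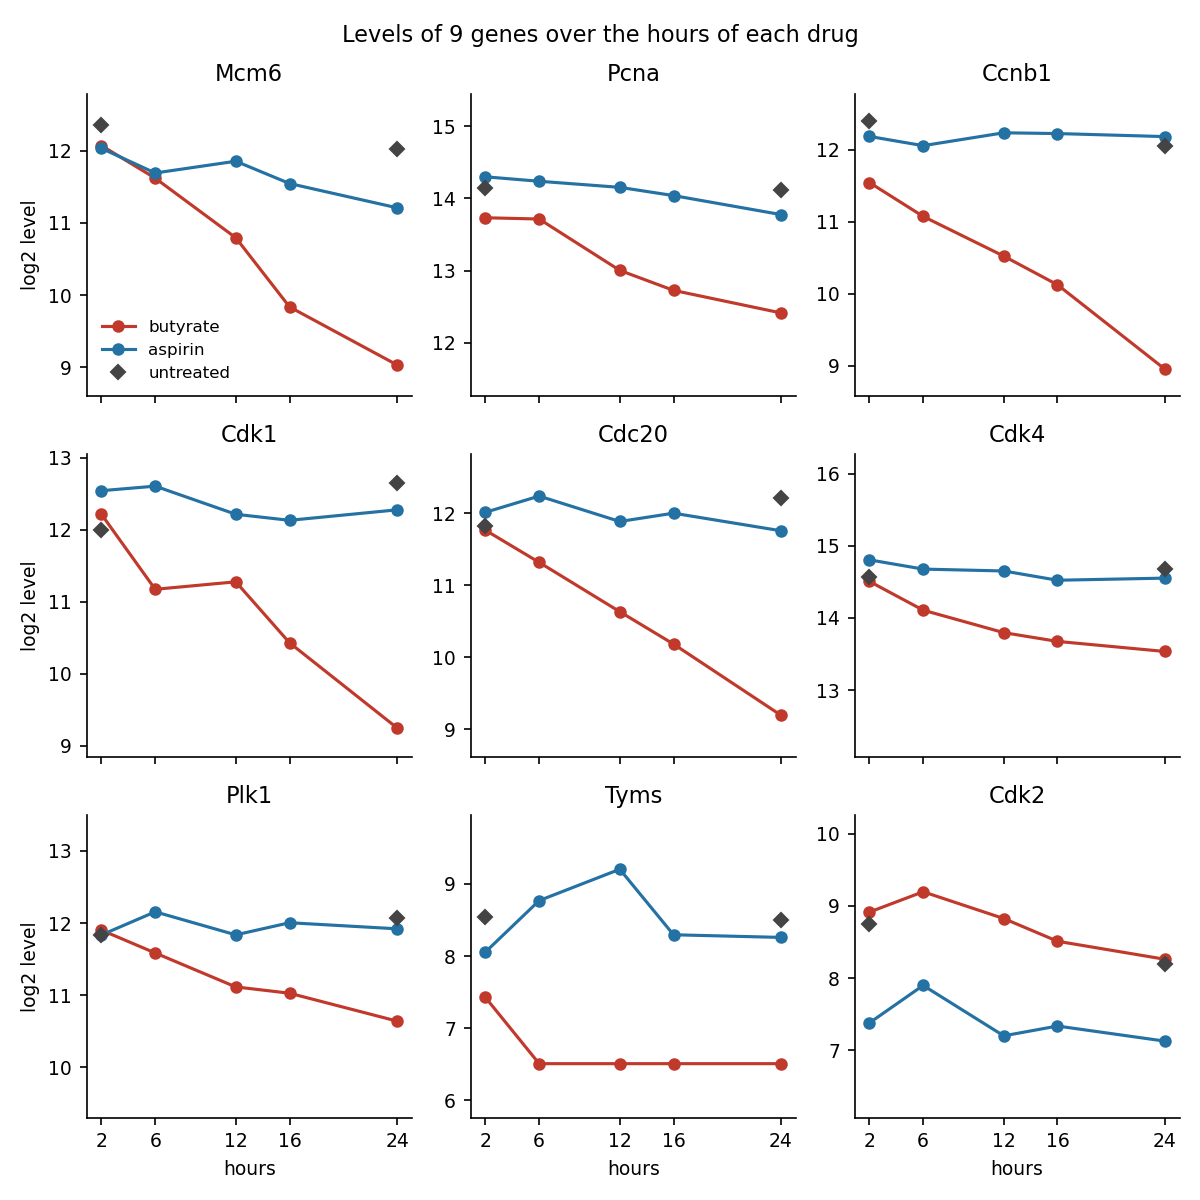
Log2 level (y axis) of 9 genes, by their brightest probe set, against hours (x axis) with butyrate (red), aspirin (blue) and no drug (grey diamonds), 1 array per point. The red line of Mcm6, Pcna, Ccnb1, Cdk1, Cdc20, Cdk4 and Plk1 ends below the blue line and both diamonds, Tyms is at the floor of 6.51 from 6 h, and Cdk2 has the red line above the blue one at every hour.

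Where a gene had several tested probe sets, they did not always share the call. Of 12 such genes, 3 fell on all of them (Mcm6, Pcna and Ccnb1), 6 on some (Ccne1, Cdk2, Cdc25b, Bub1b, Top2a and Hmgb2) and 3 on none (Prim1, Rfc4 and Tubb5). The count of 24 falling probe sets was 8 without the 2 h butyrate array, 13 without the 16 h one and 11 without the 24 h one, and between 19 and 23 without any other array, with 0 rising in each. Mcm6 (U17565_g_at), Ccnb1 (X64589_at), Cdc20 and Cdk4 fell whichever array was left out. Cdk1 (adjusted p up to 0.138), Plk1 (0.0733), Ccne1 (0.135), Ung (0.234), Cdk2 (0.368), the dim Bub1b probe set (0.163) and the other Ccnb1 probe set (0.0719) were lost only without butyrate 2 h, and U17565_at of Mcm6 (0.0559) and M24604_g_at of Pcna (0.0648) only without butyrate 24 h. M24604_at of Pcna (0.0839) and Cdc25b (0.115) were lost without butyrate 16 or 24 h, and Mcm5 (0.12), Mcm7 (0.171), rc_AI639082_s_at of Mcm6 (0.0913) and Hmgb2 (0.159) without 2, 16 or 24 h. The calls of Pola1 (up to 0.362), Hmmr (0.177), Racgap1 (0.153), Top2a (0.258) and Foxm1 (0.163) were lost without any of several arrays, those of aspirin included. With all arrays kept, some calls depended on the floor. With the floor at 181.82 those of Ung, Racgap1, Foxm1 and the dim Bub1b probe set were lost. At 45.455 those of Hmmr, Top2a and again the dim Bub1b probe set were lost.

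Promoters are shown for 6 genes that fell over the hours of butyrate and for Tyms, which was lower with butyrate as a whole, because the mitotic and S-phase factors are known to bind short motifs there. RefSeq's table (build GRCr8) held the promoter of 27 of the 31 tested genes, 18 of them among the 20 with a falling probe set, and each was read over the 250 bases before the start of the gene. The motifs searched on both strands were CCAAT, bound by NF-Y, TTTGAA, the element of mitotic genes called CHR, and TTTCGCGC, TTTGGCGC or TTTCCCGC, bound by E2F. TTTCGCGC and TTTGGCGC on opposite strands can overlap. CCAAT was in 20 of 27 promoters (74.1%) beside 34.3% of all 27457 promoters in the table, an E2F motif in 7 of 27 (25.9%) beside 1.49%, and CHR in 6 of 27 (22.2%) beside 16%. GGGCGG, bound by Sp1, was in 19 of 27 (70.4%) beside 32.4% of all, and the E-box CACGTG in 5 of 27 (18.5%) beside 5.79%. These shares describe letters, not bound sites. The promoters of Cdk4, Ccne1 and Bub1b, which also had a falling probe set, held no CCAAT, CHR or E2F letters and are not shown.

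The 7 promoters shown belong to genes whose values are given for every array, with CCAAT, CHR and E2F letters in capitals, read 5′ to 3′ toward the gene:
Mcm6 (chr13:42404353-42404602, minus strand): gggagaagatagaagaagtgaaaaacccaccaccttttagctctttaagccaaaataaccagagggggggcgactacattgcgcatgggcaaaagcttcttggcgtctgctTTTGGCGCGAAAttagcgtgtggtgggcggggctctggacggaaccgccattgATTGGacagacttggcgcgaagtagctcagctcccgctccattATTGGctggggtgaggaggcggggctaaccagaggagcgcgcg
Mcm7 (chr12:22163179-22163428, minus strand): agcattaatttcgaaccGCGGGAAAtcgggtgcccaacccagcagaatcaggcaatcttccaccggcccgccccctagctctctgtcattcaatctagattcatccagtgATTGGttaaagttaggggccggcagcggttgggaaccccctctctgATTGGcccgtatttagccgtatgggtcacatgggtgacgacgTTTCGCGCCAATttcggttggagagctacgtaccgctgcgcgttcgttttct
Tyms (chr9:120776084-120776333, minus strand): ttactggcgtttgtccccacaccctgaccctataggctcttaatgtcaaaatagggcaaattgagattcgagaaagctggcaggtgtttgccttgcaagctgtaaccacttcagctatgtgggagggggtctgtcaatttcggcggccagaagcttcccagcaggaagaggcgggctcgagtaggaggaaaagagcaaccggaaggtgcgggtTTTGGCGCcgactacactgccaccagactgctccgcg
Ccnb1 (chr2:33655226-33655475, minus strand): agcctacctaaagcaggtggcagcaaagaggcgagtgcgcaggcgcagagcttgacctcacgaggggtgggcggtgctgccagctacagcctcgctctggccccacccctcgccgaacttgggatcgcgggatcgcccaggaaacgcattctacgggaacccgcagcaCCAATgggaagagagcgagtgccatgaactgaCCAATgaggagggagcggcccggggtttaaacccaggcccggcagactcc
Cdk1 (chr20:19265043-19265292, plus strand): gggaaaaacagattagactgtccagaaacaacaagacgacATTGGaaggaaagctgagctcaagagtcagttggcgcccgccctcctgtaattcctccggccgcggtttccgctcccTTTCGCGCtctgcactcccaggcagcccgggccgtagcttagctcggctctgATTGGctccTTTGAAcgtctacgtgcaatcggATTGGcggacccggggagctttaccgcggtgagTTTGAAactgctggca
Cdc20 (chr5:137255800-137256049, minus strand): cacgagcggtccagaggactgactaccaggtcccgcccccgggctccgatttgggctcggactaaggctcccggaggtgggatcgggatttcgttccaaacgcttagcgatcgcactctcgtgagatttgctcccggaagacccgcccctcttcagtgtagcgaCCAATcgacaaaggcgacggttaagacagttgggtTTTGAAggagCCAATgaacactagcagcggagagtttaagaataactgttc
Plk1 (chr1:186147408-186147657, plus strand): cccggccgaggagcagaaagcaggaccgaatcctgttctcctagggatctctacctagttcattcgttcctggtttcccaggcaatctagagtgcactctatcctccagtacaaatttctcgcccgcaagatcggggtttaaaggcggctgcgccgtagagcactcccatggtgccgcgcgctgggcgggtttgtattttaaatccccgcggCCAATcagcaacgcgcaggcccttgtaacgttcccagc

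Both MCM promoters held CCAAT together with E2F letters, at 139 and 135 bases before the start for Mcm6 and at 233 and 52 for Mcm7. Tyms held TTTGGCGC at 37. Of the promoters shown, those of the mitotic genes held CCAAT without E2F letters, except that of Cdk1, where TTTCGCGC began 133 bases before the start. CHR letters lay at 72 and 16 bases before the start of Cdk1 and at 51 before that of Cdc20. Ccnb1 held CCAAT at 82 and 50 bases before its start and Plk1 at 38. All 6 CHR promoters, those of Ung, Cdk1, Cdc20, Hmmr, Top2a and Hmgb2, also held CCAAT. Both motifs were in 6 of 27 promoters (22.2%), beside 5.76% of all, and of all 4402 promoters with CHR letters 35.9% held CCAAT.

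Butyrate against untreated cells asked for a shift over all 5 hours at once. The change was below 0 on 42 of 47 member probe sets, beside 49.7% of all, and 6 of 47, of 5 genes, were lower at an adjusted p under 0.05 (limma), beside 3.92% of all probe sets lower and 11.7% changed either way. None was higher, beside 7.78% of all, and 22 of 47 were lower at an unadjusted p under 0.05, beside 12.4%. By the brightest probe set the median change of the 31 genes was −0.87, beside 0.01 over all genes. Tyms was lower by at least 1.83 ± 0.36 (adjusted p = 0.008), Ccnb1 by 1.78 ± 0.47 (adjusted p = 0.0287) and 1.76 ± 0.51 (adjusted p = 0.0411), Pcna by 1.01 ± 0.30 (adjusted p = 0.0431) and Cdk4 by 0.70 ± 0.20 (adjusted p = 0.0403). Mcm6 was lower by 2.17 ± 0.65 (adjusted p = 0.0445) on rc_AI639082_s_at, which read 12.74 and 12.40 untreated, 11.87, 11.32, 10.31, 9.56 and 8.91 with butyrate and 12.28, 11.32, 11.95, 11.65 and 10.52 with aspirin. The brightest probe set of Mcm6 (−1.52 ± 0.60, adjusted p = 0.115) and U17565_at (−1.16 ± 0.465, adjusted p = 0.12) did not pass. Nor did the other probe set of Pcna (−1.18 ± 0.45, adjusted p = 0.103). By the brightest probe set 4 of 31 genes were lower, beside 3.62% of all genes.

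These calls rested on few arrays. All 5 butyrate arrays lay below both untreated arrays on 15 of 47 member probe sets, beside 13.2% of all, and above both on 0, beside 14.7%. Without the untreated 2 h array 0 member probe sets were lower and 1 of Cdc25b (rc_AI012942_at) was higher, and without the 2 h butyrate array 16 were lower. Without butyrate 12, 16 or 24 h 1, 1 and 3 were lower, and without any aspirin array, which only adds to the estimate of spread, 1 or 2. Set beside untreated cells at equal hours, a description of single arrays, 6 of 47 were at least 2-fold lower with butyrate at 2 h (8.78% of all) and 30 of 47 at 24 h (9.99%). Scaling moved the reference too: median centring shifted the median change of all probe sets from 0.00 to −0.19, and then 10 of 47 were lower. The share of all probe sets lower after centring is not given, so that count cannot be set beside it.

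Aspirin gave no member a change that passed. Against untreated cells 0 of 47 passed (limma), beside 0.147% of all probe sets, with 6 at an unadjusted p under 0.05, all lower, beside 6.83% of all lower. The median change of the 31 genes was −0.16, beside −0.04 over all genes. The untreated arrays are shared with the butyrate comparison. Ccnb1 (−0.05 ± 0.47, adjusted p = 1), Pcna (−0.03 ± 0.30, adjusted p = 1), Cdk1 (0.03 ± 0.53, adjusted p = 1), Cdc20 (−0.04 ± 0.48, adjusted p = 1) and Plk1 (0.00 ± 0.27, adjusted p = 1) had changes close to 0. The largest were those of Top2a on its dim probe set (−1.998 ± 0.68, adjusted p = 0.381), Kif11 (−1.24 ± 0.43, adjusted p = 0.381), Mcm5 (−1.12 ± 0.89, adjusted p = 0.703) and Pola1 (−1.12 ± 0.45, adjusted p = 0.404). Without the untreated 24 h array 4 passed, all lower, those of Top2a, Kif11, Pola1 and Bub1b, whose untreated 2 h arrays were their highest.

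Over the hours of aspirin 0 of 47 slopes passed (limma), beside 1.65% of all probe sets, with 7 at an unadjusted p under 0.05 beside 19.7% of all. The median slope of the 31 genes was −0.09, beside 0.015 over all genes. At 24 h of aspirin 9 of 47 member probe sets stood at least 2-fold below the untreated mean, beside 6.03% of all, and 1, that of Hmmr, at least 2-fold above it, beside 7.98%. At the hours before, the members below were 5 at 2 h (7.16% of all), 5 at 6 h (7.49%), 4 at 12 h (4.82%) and 8 at 16 h (3.92%). Those with the steepest aspirin slopes by the brightest probe set were Mcm5 (−0.53 ± 0.22, adjusted p = 0.237), Fen1 (−0.34 ± 0.21, adjusted p = 0.397) and Racgap1 (−0.28 ± 0.11, adjusted p = 0.226). Taken over hours in place of log2 hours, the aspirin slopes of Mcm5 (−0.11 for each hour, adjusted p = 0.0437), Racgap1 (−0.05, 0.0343) and Stmn1 (−0.04, 0.0234) passed. Without the 2 h aspirin array D14015_g_at of Ccne1 passed (−0.56, adjusted p = 0.0351).

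**Figure D4:**
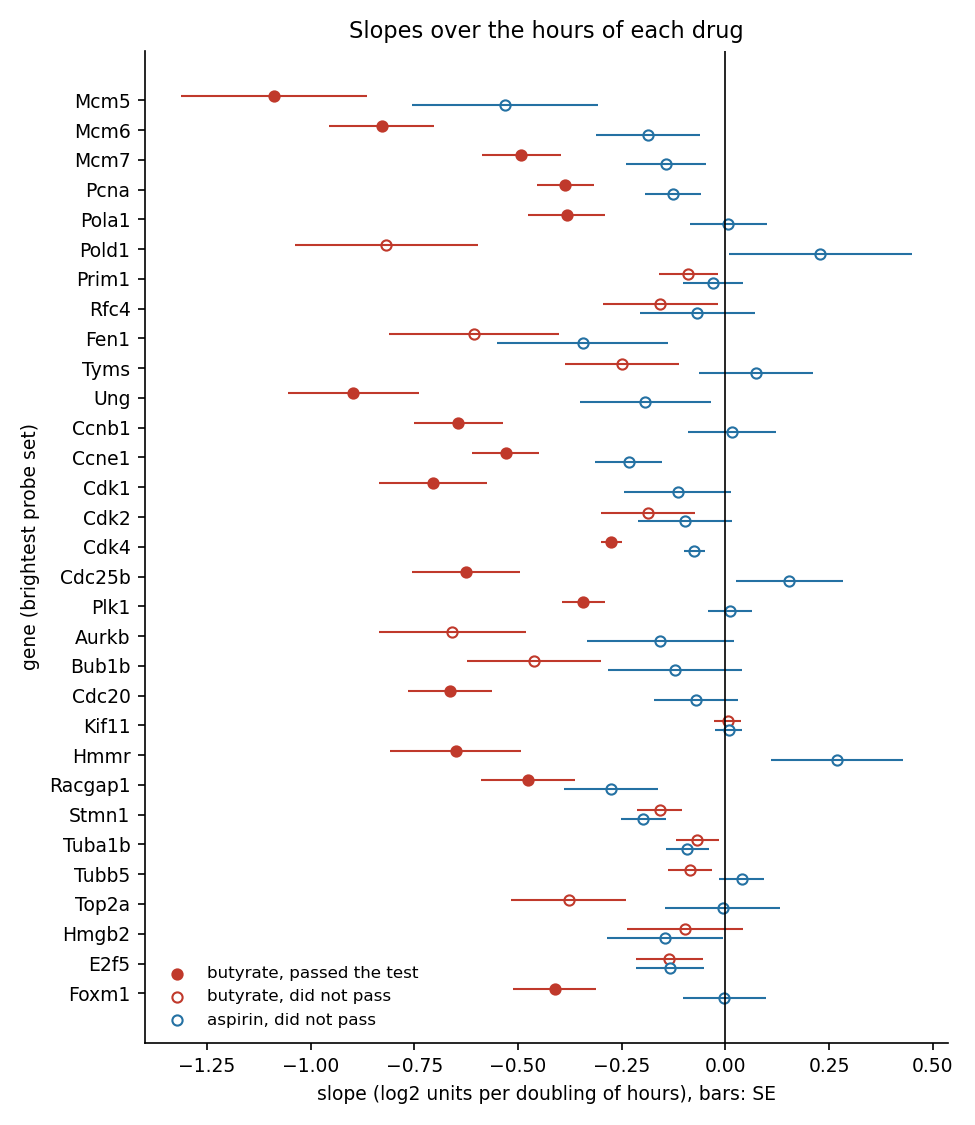
Slope of each gene's brightest probe set over log2 hours of butyrate (red) and aspirin (blue), in log2 units per doubling of hours with bars of 1 SE (x axis), for the 31 genes (y axis). Filled points passed limma's test at an adjusted p under 0.05: 16 butyrate slopes, all below 0, and 0 aspirin slopes.

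Whether the courses differed between the drugs was tested as the difference of the slopes. It was negative on 43 of 47 member probe sets, beside 48.4% of all, and 1 of 47 passed (limma), beside 1.73% of all probe sets: Cdk4, whose slope was lower with butyrate by 0.20 ± 0.04 (adjusted p = 0.0399). Another 22 had an unadjusted p under 0.05, for 23 in all, each lower, beside 9.48% of all lower. The differences of Ccnb1 (−0.66 ± 0.15, adjusted p = 0.0753), Cdc20 (−0.59 ± 0.14, adjusted p = 0.0841) and Plk1 (−0.35 ± 0.07, adjusted p = 0.0595) missed the threshold. Cdk4 was lost without 9 of the 10 arrays taken singly, all but aspirin 6 h (adjusted p up to 0.163). The call of Cdk4 was also lost with a lower floor and without a variance trend. Nor did Cdk4 pass with quantile normalization, where Plk1 did (adjusted p = 0.0439). With median centring Cdk4 did not pass either, while X64589_at of Ccnb1 did (adjusted p = 0.0481). Over hours in place of log2 hours, 8 of 47 differences passed, all lower with butyrate: both probe sets of Ccnb1, both U17565 probe sets of Mcm6, and Cdc20, Cdc25b, Hmmr and Pold1 (adjusted p 0.0157 to 0.0497), and Cdk4 did not. The share of all probe sets that passed over hours is not given.

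Hour by hour, butyrate was compared with aspirin with the hour as a block. Of 47 member probe sets 17 were lower with butyrate (36.2%), beside 9.61% of all probe sets, and 1 was higher, beside 15.6%. By the brightest probe set 14 of 31 genes were lower, beside 8.97% of all genes, with a median difference of −0.60 beside 0.10. Tyms was lower by at least 1.83 ± 0.31 (adjusted p = 0.0135), Ung by at least 1.77 ± 0.43 (adjusted p = 0.0328), Ccnb1 by 1.73 ± 0.38 (adjusted p = 0.0248) and 1.67 ± 0.38 (adjusted p = 0.0276), Cdk1 by 1.48 ± 0.37 (adjusted p = 0.035) and Cdc20 by 1.36 ± 0.33 (adjusted p = 0.0317). Pcna was lower by 0.98 ± 0.16 (adjusted p = 0.0119) and 1.26 ± 0.22 (adjusted p = 0.0144), Mcm7 by 0.82 ± 0.20 (adjusted p = 0.0333) and Ccne1 by 0.79 ± 0.19 (adjusted p = 0.0318). The other probe set of Ccne1 did not pass (−0.08 ± 0.18, adjusted p = 0.757). Hmgb2 was lower by 1.06 ± 0.19 (adjusted p = 0.0153) on its dimmer probe set, while the brightest did not pass (−0.34 ± 0.23, adjusted p = 0.309).

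Smaller differences passed for Cdk4 (−0.72 ± 0.11, adjusted p = 0.0114), Plk1 (−0.70 ± 0.20, adjusted p = 0.0476), Racgap1 (−0.57 ± 0.15, adjusted p = 0.0392), Prim1 (−0.38 ± 0.10, adjusted p = 0.039), Tuba1b (−0.29 ± 0.06, adjusted p = 0.022) and Stmn1 (−0.24 ± 0.06, adjusted p = 0.0428). Prim1 read 11.75 and 11.63 untreated, 11.61, 11.80, 11.63, 11.67 and 11.14 with butyrate and 11.95, 11.96, 12.18, 11.91 and 11.75 with aspirin. Tuba1b, a tubulin subunit, read 14.66 and 14.77, 14.68, 14.54, 14.35, 14.50 and 14.46 and 15.09, 14.80, 14.48, 14.77 and 14.84 in that order. In both the butyrate and aspirin arrays overlapped. The other probe set of Prim1, U67994_at, did not pass, with means of 10.38 with butyrate and 10.73 with aspirin. Whichever treated array was left out, the calls of Prim1, Racgap1 and Stmn1 were lost (limma, adjusted p up to 0.122, 0.129 and 0.124). With quantile normalization Tuba1b was at −0.06 (adjusted p = 0.426) and Stmn1 at −0.11 (0.251), with median centring at −0.60 (0.00239) and −0.54 (0.00746). The call of Racgap1 was lost in 5 of the 8 settings that keep all arrays (adjusted p up to 0.266), that of Prim1 in 5 (up to 0.0586) and that of Plk1 in 4 (up to 0.113), while Cdk4 kept its call in all 8.

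The member that was higher with butyrate was Cdk2, on its brighter probe set. It read 8.75 and 8.19 untreated, 8.91, 9.20, 8.82, 8.51 and 8.26 with butyrate and 7.38, 7.90, 7.20, 7.33 and 7.12 with aspirin, so that every butyrate array lay above every aspirin array the untreated 2 h array lay within the butyrate range and the untreated 24 h array between the drugs. The difference was 1.36 ± 0.17, adjusted p = 0.00756, and it passed whichever treated array was left out and under the other settings tried (adjusted p up to 0.0449). Neither difference from untreated cells passed (0.27 ± 0.34, adjusted p = 0.652, for butyrate and −1.08 ± 0.34, adjusted p = 0.363, for aspirin). On its dim probe set the difference was 0.32 ± 0.31, adjusted p = 0.476.

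The count of 17 lower probe sets depended on single hours. It was 15 without the 2 h array of either drug, 2 without the 6 h array of either drug, 0 without the 12 h or the 16 h array of either, and 2 or 3 without the 24 h array of butyrate or aspirin, where in each case the other array of that hour also drops out of the block. The share of members at least 2-fold below aspirin at the same hour was 0 of 47 at 2 h (3.71% of all), 5 at 6 h (6.46%), 12 at 12 h (7.34%), 19 at 16 h (9.35%) and 26 at 24 h (9.28%). Butyrate lay below aspirin at every hour on 15 of 47 member probe sets, beside 13% of all. Median centring moved the median difference of all probe sets from 0.10 to −0.21, with 28 members then lower and 1 higher, and quantile normalization to −0.03, with 12 lower and 1 higher. For these scalings the share of all probe sets is not given, so the counts cannot be set beside it.

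Among 93 further cell cycle genes outside the 58, 31 were tested, and their slopes with butyrate had a median of −0.16, beside 0.03 over all genes. Counted by the brightest probe set, 7 of these 31 (22.6%) fell over the hours of butyrate, beside 4.33% of all genes, and 0 rose, beside 5.18%. Dut, which removes the uracil nucleotide from the pool for DNA, read 13.04 and 13.27 untreated, 12.79, 12.46, 11.70, 10.80 and 9.70 with butyrate and 12.91, 13.29, 13.12, 12.75 and 12.83 with aspirin, and fell by 0.81 ± 0.15 (adjusted p = 0.0158). The histone variant gene H2az1 fell by 0.54 ± 0.11 (adjusted p = 0.0221), Nap1l1, a histone chaperone gene, by 0.45 ± 0.10 (adjusted p = 0.0284), and Pola2, a subunit of the polymerase of Pola1, by 0.39 ± 0.09 (adjusted p = 0.0346). Smc4 of the condensin complex, which compacts mitotic chromosomes, fell by 0.72 ± 0.17 (adjusted p = 0.041) and the lamin gene Lmnb1 by 0.40 ± 0.10 (adjusted p = 0.0442). The other was Brca1 (−0.25 ± 0.06, adjusted p = 0.0476). It lay at the floor on every array except those at 2 and 6 h of butyrate (7.20 and 7.30), so its fall ended at the untreated level. Against untreated cells 0 of 31 were lower, beside 3.62% of all genes, and 1 was higher with butyrate, beside 7.7%, Cdk5 (1.52 ± 0.45, adjusted p = 0.0427), a kinase known mainly from neurons, which is named here after its value was seen. With aspirin 0 of 31 changed against untreated cells (limma), beside 0.0274% of all genes lower and 0.11% higher. Over the hours of aspirin 1 of 31 rose (limma), beside 1.1% of all genes, again Cdk5 (0.44 ± 0.06, adjusted p = 0.0215). Butyrate against aspirin gave 4 of 31 lower (12.9%), beside 8.97% of all genes, and 2 higher (6.45%), beside 15.7%, so the share lower was near that of all genes.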

How the data were processed

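Total RNA of CC531 cells was read on 12 arrays. The deposited values are the authors' linear signal intensity per probe set, with 21.6% to 25.6% of values per array below 0 and a 2% trimmed mean of 1001.52 to 1002.08 on each array, so the arrays share a common scale. Which software made them is not given in the sources used. From these intensities 59 control probe sets were left out, values below 90.91 (the size of the 10th percentile) were raised to it, and log2 was taken. A filter on the mean log2 level, at its 30th percentile of 6.54, removed 2622 dim probe sets and kept 6118. On the arrays 13.4% to 21.1% of tested values were at the floor, where no order can be read. The platform's annotation gave 1 gene for 7006 probe sets, several for 308 and none for 1426, and 6994 symbols were matched through gene numbers to RefSeq.

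Limma 3.58.1 (R 4.3.3) fitted the means of butyrate, aspirin and untreated arrays (9 residual degrees of freedom), butyrate against aspirin with the hour as a block (4), and slopes over log2 hours for each drug and their difference (6), with a variance trend and Benjamini-Hochberg adjustment over all 6118 probe sets at 0.05. Each ± is a standard error. Scripts were tested on simulated data. Genes were described by role, with values for each member that had a called probe set, and genes of the further cell cycle list were named only from those called. The members and lists were chosen with earlier results of these data known. Other scalings, floors, filters, designs and the leaving out of each array were tried. No array pair held the same values at more than 0.114% of probe sets.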

Additional observations from a re-analysis of the deposited data

Results flagged for a closer look

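In 94 groups of 5 arrays (47 probe sets, 2 drugs), 5 were flagged for 1 array apart from the other 4. In each the other 4 lay at the floor, where any level above it raises the flag. The rate of about 1 in 20 groups by chance does not apply to such groups. The flags show only that 1 array rose above the floor. Tyms read 7.43 at 2 h of butyrate, with the other 4 butyrate arrays at the floor of 6.51. Cdc25b (rc_AI012942_g_at) read 6.84 at 6 h of aspirin, Bub1b (U83666_at) 6.72 at 2 h of aspirin, and Kif11 6.61 at 12 h of butyrate and 6.66 at 12 h of aspirin, each with the other 4 arrays of that drug at the floor. The slope of Cdk4 differed between the drugs by −0.20 log2 units per doubling of hours (butyrate minus aspirin). That call held in 4 of 18 other settings, counting those that leave out 1 array. It was lost with quantile normalization and with median centring.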

How the results depend on the processing

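The count of member slopes falling with butyrate (24) was between 16 and 27 under other scalings, floors, filters, the fit without a variance trend and the slope over hours, and 8 to 23 with 1 array left out. Over hours, Aurkb (limma, adjusted p = 0.0102), Pold1 (0.0104), Stmn1 (0.0151), Fen1 (0.0166) and rc_H31604_at of Bub1b (0.0186) fell too. So did Top2a on Z19552cds_at (0.0208) and rc_AA899854_at (0.0288). The calls of Pola1, Ung, Cdk2 and the dim Bub1b probe set were lost over hours. Aurkb and Pold1 also passed with quantile normalization (0.0495 and 0.0462) and with centring (0.021 and 0.0222). The 6 probe sets lower with butyrate than untreated became 10 with median centring, 1 with the floor at 181.82, 1 without a filter, 2 without a variance trend, 0 on the 2 and 24 h arrays alone with the hour as a block and 1 with the aspirin arrays left out together. With 1 array left out, 0 to 16 were lower, and 1 to 16 passed in either direction. The 18 that differed between the drugs became 29 with centring, 9 with the floor at 181.82, 7 without a filter and 11 without the hour block, and 1 to 16 with 1 array left out. Against untreated cells aspirin gave 0 in all other settings and 0 to 4 with 1 array left out. Its slopes gave 1 with centring, 3 over hours, and 0 to 1 with 1 array left out. The slope difference (1) became 0 with the floor at 45.455, 0 without a variance trend, 6 with the filter at the 50th percentile and 8 over hours, and 0 to 2 with 1 array left out. With quantile normalization the slope difference passed for Plk1 in place of Cdk4, and with centring for Ccnb1. Some changes against untreated cells that had not passed turned sign with 1 array left out. Pola1 ranged from −1.81 to 0.079 and Kif11 from −2.52 to 0.021 (the higher without untreated 2 h), Cdk2 from −0.0055 (without untreated 24 h) to 0.55, Stmn1 from −0.65 to 0.033 (without untreated 24 h) and Hmmr from −0.75 (without untreated 24 h) to 0.85, with −0.20 and −0.17 without butyrate 2 h or 6 h. Hmmr also turned to −0.064 with quantile normalization, −0.14 with centring, −0.15 with the floor at 45.455, −0.010 with the hour as a factor and −0.22 on the 2 and 24 h arrays alone. Apart from the arrays and probe sets each setting leaves out, the cause was not tested. The arrays were paired by hour alone, since the labels give no replicate numbers: the hour was the block between the drugs and on the 2 and 24 h arrays. Values at the floor limit what can be read of dim probe sets, and each hour of a drug had 1 array. Shares over all probe sets are given for the main settings alone.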
